A study of Mus musculus with 74 samples.

Results

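The 8 genes described here carry the synthesis of bile acids in the liver and their movement from blood to bile: Cyp7a1, Cyp8b1, Cyp27a1, Baat, Slc10a1, Abcb11, Abcb4 and Nr0b2. They were taken by their listed symbols, with all probe sets that the array annotation ties to 1 symbol, which gave 12 probe sets of 34945 and 8 genes of the 18193 measured. Total RNA of male B6C3F1 mice, a hybrid strain, was measured on 74 Affymetrix mouse arrays, of which 40 were of liver, 20 of brown adipose tissue and 14 of white adipose tissue. The study gave mice compounds linked to hemangiosarcoma, a tumour of blood vessel lining, at high doses and took tissue on days 15 and 29. Troglitazone, a thiazolidinedione that activates the nuclear receptor PPARgamma, was given by mouth at 1200 mg/kg, and Elmiron, the polysaccharide pentosan polysulfate, by mouth at 1000 mg/kg. Fenretinide, a synthetic retinoid, was given in the diet at 500 mg/kg. The liver arrays form 8 groups of 5 mice: troglitazone and its vehicle, and Elmiron and its own vehicle, each on days 15 and 29. Brown adipose tissue came from the troglitazone study in 4 groups of 5 mice, and white adipose tissue from the fenretinide study in groups of 3 on day 15 and of 4 on day 29. Each array is 1 mouse and tissue, no age is given in the labels, and what the vehicle contained is not given in the sources used here. Because each compound was a study of its own, compound and study cannot be told apart in any comparison between compounds.

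Bile acids are made from cholesterol in hepatocytes and carry cholesterol and phospholipid into bile. Cyp7a1 is the rate-limiting hydroxylase of the classic pathway, Cyp27a1 opens the alternative pathway, Cyp8b1 adds the hydroxyl group that makes cholic acid, and Baat joins bile acids to taurine or glycine. Slc10a1 (NTCP) takes conjugated bile acids up from blood, Abcb11 (the bile salt export pump) moves them into bile, and Abcb4 moves phosphatidylcholine to the canalicular side. Nr0b2 (SHP) is a repressor without a DNA-binding domain that the bile acid receptor FXR induces and that lowers Cyp7a1 and Cyp8b1 together with LRH-1. Troglitazone is known to inhibit the bile salt export pump as a protein, which transcript levels do not report.

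The promoters of 3 of the genes are shown because the results set a regulator (Nr0b2) beside a target of the same receptor (Abcb11) and the gene whose troglitazone and vehicle livers of day 29 did not overlap (Cyp8b1). They are the 250 bases before the annotated start in RefSeq, build GRCm38.p6, written 5′ to 3′ along the gene, with the matches to the motifs below in capitals. The windows are chr4:133553126-133553375 (plus strand) for Nr0b2, chr2:69342617-69342866 (minus strand) for Abcb11 and chr9:121916306-121916555 (minus strand) for Cyp8b1.
Nr0b2: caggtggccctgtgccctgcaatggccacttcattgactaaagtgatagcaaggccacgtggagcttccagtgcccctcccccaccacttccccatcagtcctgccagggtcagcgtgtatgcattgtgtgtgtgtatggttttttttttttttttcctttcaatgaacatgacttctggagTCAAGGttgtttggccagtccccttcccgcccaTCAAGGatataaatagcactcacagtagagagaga
Abcb11: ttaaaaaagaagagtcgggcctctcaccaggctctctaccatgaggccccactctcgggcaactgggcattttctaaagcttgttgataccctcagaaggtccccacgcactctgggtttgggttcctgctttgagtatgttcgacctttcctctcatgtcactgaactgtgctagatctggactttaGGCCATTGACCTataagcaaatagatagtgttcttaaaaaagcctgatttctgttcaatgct
Cyp8b1: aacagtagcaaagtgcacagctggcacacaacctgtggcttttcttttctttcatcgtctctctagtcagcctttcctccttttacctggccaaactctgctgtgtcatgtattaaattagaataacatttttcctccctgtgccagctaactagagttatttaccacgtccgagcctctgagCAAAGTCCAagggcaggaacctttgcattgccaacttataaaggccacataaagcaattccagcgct
Both strands were searched for TCAAGG, the core of LRH-1 sites, for AGGTCA, the hexamer bound by many nuclear receptors, for a relaxed form of the inverted repeat bound by FXR with RXR (GGTCA, any base, TG, any base, CC), and for CAAAGTCCA, a form of the HNF4 site. Nr0b2 held TCAAGG at -68 and again at -35 from the start, letters found in 12.5% of 32851 promoter windows of that length. Abcb11 held the inverted repeat at -62 on the opposite strand, found in 0.198% of windows, and it overlaps an AGGTCA hexamer at -56, found in 14.0%. Cyp8b1 held CAAAGTCCA at -67, found in 0.384% of windows. Of the 8 genes, 6 matched an entry, with 7 entries in all because Slc10a1 has 2, and those not matched were Cyp7a1 and Baat. One Slc10a1 entry held AGGTCA at -87, and no searched letters were found in the windows of Cyp27a1 and Abcb4. These matches describe the sequence alone.

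Values are log2 of the deposited intensity after RMA, a summary and normalization of the probes of a probe set, so a difference of 1 is a 2-fold difference. Levels of different genes are not compared, since each probe set has its own brightness. The mean log2 level of 9 measured hepatocyte markers lay between 14.61 and 14.80 in all 40 arrays, near the top of the deposited scale, where a moderate difference in the share of hepatocytes may not show. That of the 6 measured cholangiocyte markers lay between 6.39 and 6.81 in liver, against 6.60 to 8.83 in white and 5.97 to 8.42 in brown adipose tissue. At such low levels a difference in the share of cholangiocytes may not show either. In such bulk samples, fewer cells of a type and less RNA per cell cannot be told apart. The mean level of 10 acute phase genes varied far more, from 11.56 to 14.25 with a median of 11.93, and 7 livers stood above 13 while the highest of the other 33 was 12.74. These 7 were troglitazone mice 54 and 55 of day 15 and 92 of day 29, Elmiron mouse 55 of day 15 and mice 91 and 92 of day 29, and vehicle mouse 85 of day 29 in the Elmiron study. The 4 treated against vehicle differences are given without these livers for Cyp7a1, Cyp8b1 and Nr0b2 below.

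In liver, none of the 8 genes changed with either compound on either day by the test used, limma over all 18193 genes with a Benjamini-Hochberg adjusted p below 0.05. With troglitazone on day 15, 0 of 8 members were called, against 0.0220% of all genes (4 genes), and 0 members and 782 genes had an unadjusted p below 0.05. With troglitazone on day 29, 0 of 8 were called, against 0.115% of all genes (21), and 2 members (Cyp8b1 and Abcb4) and 1859 genes were below the unadjusted threshold. With Elmiron on day 15, 0 of 8 were called, against 0% of all genes, and 0 members and 997 genes were below it. With Elmiron on day 29, 0 of 8 were called, against 0.00550% of all genes (1 gene), and 0 members and 1510 genes were below it. So few genes of any kind passed that a count of 0 members says little by itself. In the same order, 0, 1, 0 and 0 members had treated and vehicle livers that did not overlap, against 2.09%, 1.07%, 1.06% and 1.43% of all genes. Over the 12 probe sets, fitted among all 34945, the count was also 0 in each comparison, against 0.0372%, 0.0715%, 0% and 0.00286% of probe sets, with 0, 3, 0 and 0 below an unadjusted p of 0.05.

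For 6 of the genes, those with the smaller spread between mice, the data bound the change in deposited intensity tightly. The 95% confidence intervals of Cyp8b1, Cyp27a1, Slc10a1, Abcb11, Abcb4 and Baat lay within a 1.5-fold change in either direction in 24 of 24 comparisons. The share of all genes with such intervals was not computed, so whether the count is particular to these genes was not tested. These 6 were set apart by their small spread, and a small spread narrows an interval. The count therefore follows in part from that choice. The largest estimated change of these 6 genes was 1.18-fold, for Abcb4, and the farthest bound of any of their intervals was 1.38-fold. For Cyp7a1 and Nr0b2, 0 of 8 intervals lay within 1.5-fold and 4 of 8 within 2-fold, because mice of the same group differed widely in both genes. The widest interval was that of Cyp7a1 in the Elmiron study, which reached 4.27-fold.

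**Figure D1:**
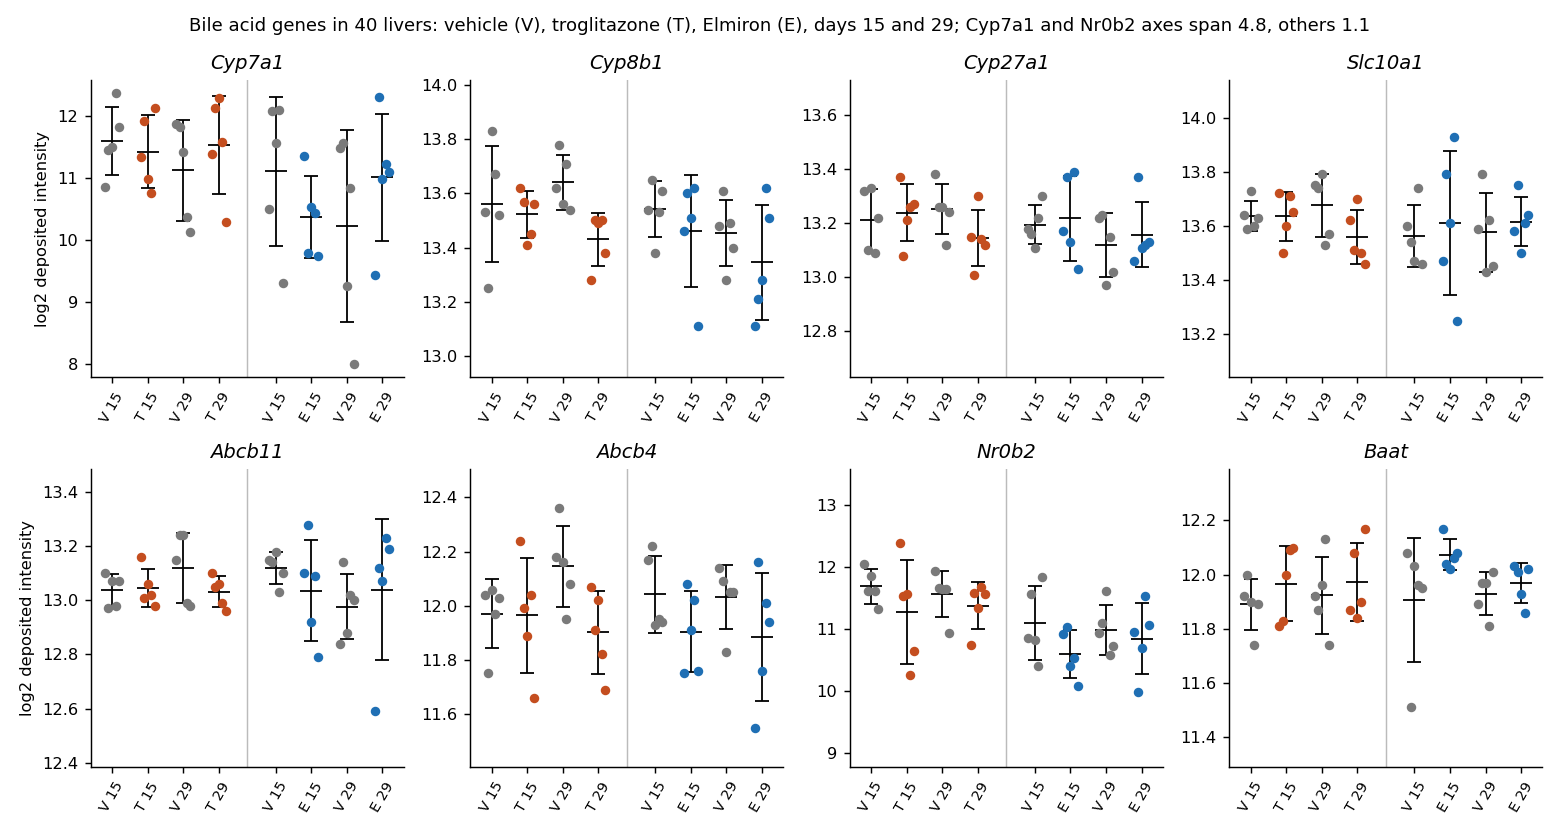
Log2 deposited intensity of each gene in each of 40 livers (points), with the group mean and SD as bars; the left 4 groups of each panel are the troglitazone study and the right 4 the Elmiron study, and numbers are days. Cyp7a1 (8.0 to 12.36) and Nr0b2 (9.98 to 12.38) are drawn on wider axes, and treated and vehicle points overlap in every pair except Cyp8b1 with troglitazone on day 29.

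Cyp7a1, the rate-limiting enzyme, was the most variable member. In the troglitazone study its 5 vehicle livers of day 15 were at 10.85, 11.45, 11.49, 11.82 and 12.36, and the treated livers at 10.75, 10.98, 11.34, 11.92 and 12.12. On day 29 the vehicle livers were at 10.13, 10.37, 11.41, 11.82 and 11.87, and the treated livers at 10.29, 11.39, 11.57, 12.13 and 12.28. Treated and vehicle mice overlapped across nearly the whole range on both days. The difference from vehicle was -0.17 ± 0.38 (SE, n = 5 against 5; 95% interval -0.96 to 0.61; limma adjusted p = 0.972) on day 15 and 0.41 ± 0.38 (-0.37 to 1.20; adjusted p = 0.742) on day 29. The day-29 value of Cyp7a1 was 0.16 without vehicle mouse 88 and 0.72 without treated mouse 96, 0.02 with array weights and 1.30 against the Elmiron study's vehicle livers. Leaving out vehicle mouse 87 or treated mouse 93 or 94 gave 0.23, 0.26 and 0.23.

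In the Elmiron study the spread of Cyp7a1 was wider still. Vehicle livers of day 15 were at 9.30, 10.49, 11.56, 12.07 and 12.09, and those given Elmiron at 9.74, 9.78, 10.43, 10.53 and 11.35. On day 29 vehicle livers were at 8.0, 9.26, 10.83, 11.48 and 11.56, and those given Elmiron at 9.43, 10.98, 11.09, 11.22 and 12.30. The Elmiron group was in the lower part of the vehicle range on day 15 and reached above it on day 29. The difference from vehicle was -0.74 ± 0.63 (SE, n = 5 against 5; -2.05 to 0.58; adjusted p = 0.993) on day 15 and 0.78 ± 0.63 (-0.54 to 2.09; adjusted p = 0.728) on day 29. The difference between these days was 1.51 (-0.35 to 3.37; adjusted p = 0.887), so it did not pass the test.

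The second Cyp7a1 probe set followed the first from mouse to mouse, with a Pearson r of 0.917 over the 40 livers after group means were removed, but gave other group differences. Its differences from vehicle were -0.00 and 0.67 with troglitazone on days 15 and 29 and -0.32 and 0.23 with Elmiron. The day-29 value with Elmiron also depended on the vehicle mice: without vehicle mouse 85, the lowest at 8.0, the difference of Cyp7a1 was 0.22. Against the troglitazone study's vehicle livers, a comparison that mixes compound and study, it was -0.12. Vehicle mouse 85 and Elmiron mouse 91, the lowest of its group at 9.43, were both among the 7 livers high in acute phase genes. Without the 7, the differences of Cyp7a1 were 0.20 and 0.45 with troglitazone and -0.58 and 0.31 with Elmiron, none called.

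Cyp8b1, the enzyme that sets how much cholic acid is made, gave the only treated and vehicle livers that did not overlap among the members. Vehicle livers of day 29 in the troglitazone study were at 13.54, 13.56, 13.62, 13.71 and 13.78, and treated livers at 13.28, 13.38, 13.49, 13.50 and 13.50. Every treated liver was below every vehicle liver, a pattern found in 1.07% of all genes in that comparison and, in this direction, in 0.308%. The means were 13.43 ± 0.10 and 13.64 ± 0.10 (SD, n = 5), a difference of -0.21 ± 0.09 (SE; -0.40 to -0.02), which did not pass (limma adjusted p = 0.459). On day 15 the treated and vehicle livers overlapped and the difference was -0.04 (-0.23 to 0.15; adjusted p = 0.973), and the difference between days was -0.17 (-0.44 to 0.10; adjusted p = 0.751). Set against the Elmiron study's vehicle livers of the same day, the day-29 value was -0.02, but that comparison mixes compound and study. Without the 7 livers high in acute phase genes, the differences of Cyp8b1 were 0.02 and -0.17 with troglitazone and 0.00 and 0.01 with Elmiron, none called. With all livers and Elmiron, Cyp8b1 differed from vehicle by -0.08 (-0.31 to 0.14) on day 15 and -0.11 (-0.33 to 0.12) on day 29, with adjusted p of 0.998 and 0.784 and overlapping groups.

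Cyp27a1 and Baat, the enzymes that open the alternative pathway and conjugate the product, stayed within narrow limits. Group means of Cyp27a1 ran from 13.12 to 13.25 over the 8 groups, and its 4 changes from -0.11 to 0.04, with the lowest adjusted p at 0.661. Group means of Baat ran from 11.89 to 12.07, and its changes from 0.04 to 0.17. The largest was with Elmiron on day 15, where vehicle livers were at 11.51, 11.95, 11.96, 12.03 and 12.08 and Elmiron livers at 12.02, 12.04, 12.06, 12.08 and 12.17. The groups overlapped, and the difference of 0.17 (-0.02 to 0.35) did not pass (limma adjusted p = 0.938). The second Baat probe set gave 0.05 in the same comparison, and the second Cyp27a1 probe set, at 3.42 to 4.37 in all livers, is too dim to add to the first.

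None of the carriers passed the test. Slc10a1, the uptake carrier, had group means from 13.56 to 13.68 and changes from -0.12 to 0.05, and its second probe set followed it between mice (r of 0.915) with changes from -0.15 to 0.11. Abcb11, the export pump, had group means from 12.97 to 13.12 and changes from -0.09 to 0.07, with the lowest adjusted p at 0.707. Abcb4, the phospholipid carrier, was lowest relative to vehicle with troglitazone on day 29, where vehicle livers were at 11.95, 12.08, 12.16, 12.18 and 12.36 and treated livers at 11.69, 11.82, 11.91, 12.02 and 12.07. The upper treated livers overlapped the lowest vehicle liver, and the difference of -0.24 ± 0.10 (SE; -0.46 to -0.03) did not pass (limma adjusted p = 0.455). Abcb4 differed from vehicle by -0.01 on day 15 with troglitazone and by -0.14 and -0.15 with Elmiron on days 15 and 29, with overlapping groups and adjusted p of 0.996, 0.989 and 0.698.

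Nr0b2, the FXR-induced repressor, varied more than all members but Cyp7a1. In the troglitazone study the vehicle livers of day 15 were at 11.32, 11.61, 11.61, 11.86 and 12.05, and the treated livers at 10.26, 10.65, 11.53, 11.56 and 12.38. The treated livers lay on both sides of the vehicle range, and the difference from vehicle was -0.41 ± 0.28 (SE, n = 5 against 5; -1.0 to 0.17; adjusted p = 0.957). On day 29 the vehicle livers were at 10.93, 11.64, 11.64, 11.67 and 11.94, and the treated livers at 10.74, 11.34, 11.56, 11.58 and 11.68, a difference of -0.18 (-0.77 to 0.40; adjusted p = 0.861).

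In the Elmiron study the 4 group means of Nr0b2 were 10.59 to 11.10, against 11.28 to 11.69 in the troglitazone study. Vehicle livers of day 15 were at 10.40, 10.82, 10.86, 11.57 and 11.84, and Elmiron livers at 10.08, 10.41, 10.54, 10.92 and 11.03. On day 29 vehicle livers were at 10.59, 10.72, 10.93, 11.09 and 11.62, and Elmiron livers at 9.98, 10.70, 10.95, 11.07 and 11.53. The differences from vehicle were -0.50 ± 0.28 (SE; -1.08 to 0.07; limma adjusted p = 0.938) on day 15 and -0.14 ± 0.28 (-0.72 to 0.43; adjusted p = 0.901) on day 29. All 4 estimates of Nr0b2 were below 0 against each study's own vehicle livers and none passed. Against the other study's vehicle livers they were 0.18 and 0.39 with troglitazone on days 15 and 29 and -1.10 and -0.71 with Elmiron. Without the 7 livers high in acute phase genes they were -0.17, -0.02, -0.38 and 0.05.

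**Figure D2:**
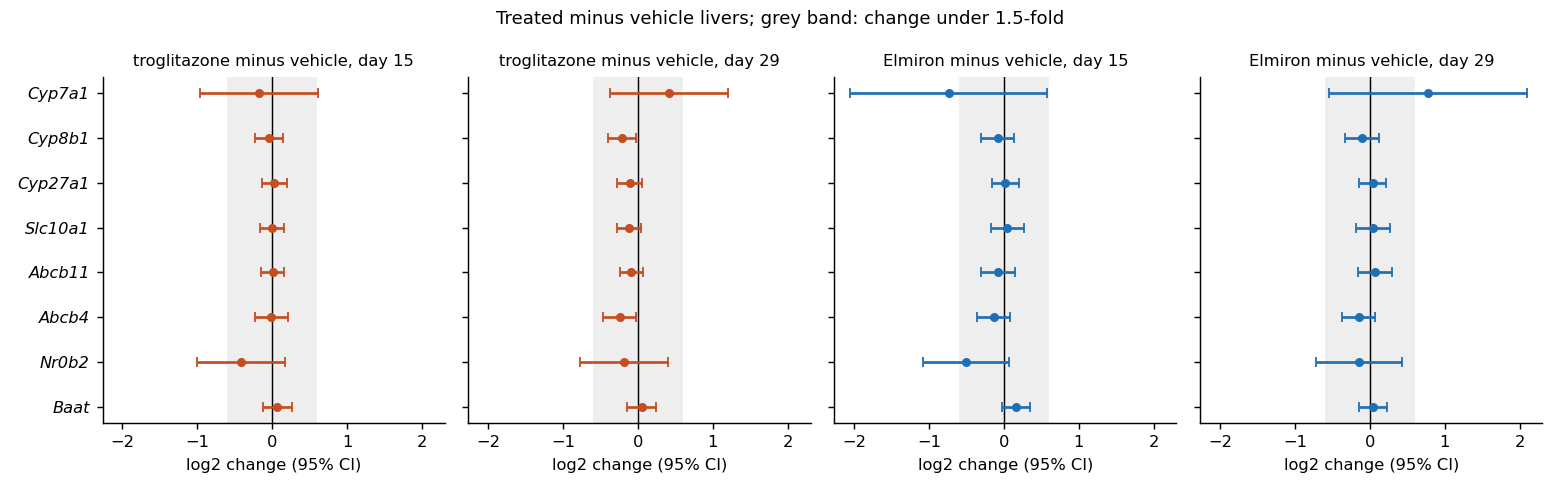
Treated minus vehicle change (log2, limma) of each gene with its 95% confidence interval, 5 mice against 5, in the 4 liver comparisons; the grey band spans changes under 1.5-fold. Intervals of 6 genes stay inside the band in all 4 panels, and those of Cyp7a1 and Nr0b2 reach beyond it.

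No member passed the test between days or between compounds. Between days, 0 of 8 members were called for troglitazone and 0 of 8 for Elmiron, against 0% and 0% of all genes, with 1363 and 981 genes at an unadjusted p below 0.05. Between compounds, 0 of 8 were called on day 15 and 0 of 8 on day 29, against 0.00550% and 0.0934% of all genes, with 1087 and 2309 at an unadjusted p below 0.05. For Abcb11 the difference between the effects of troglitazone and Elmiron was 0.09 (-0.17 to 0.35) on day 15 and -0.16 (-0.41 to 0.10) on day 29, and for Slc10a1 -0.05 (-0.31 to 0.21) and -0.16 (-0.42 to 0.10). For Cyp7a1 it was 0.56 (-1.02 to 2.15) and -0.37 (-1.95 to 1.22), with intervals too wide to separate like from unlike effects.

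The vehicle livers were also compared between days and between studies. From day 15 to day 29, 0 of 8 members were called in either study, against 0% and 0% of all genes (1185 and 986 at an unadjusted p below 0.05). Cyp7a1 differed by -0.47 (-1.26 to 0.31, limma adjusted p = 0.837) in the troglitazone study. In the Elmiron study it differed by -0.875 (-2.19 to 0.44, limma adjusted p = 0.985), more than in any comparison of treated with vehicle livers. The other members differed by -0.15 to 0.17. Between the vehicle livers of the 2 studies, 0 of 8 were called on day 15 and 0 of 8 on day 29, against 0% and 0% (565 and 2073 unadjusted). For Nr0b2 the Elmiron study's vehicle livers minus the troglitazone study's gave -0.59 (-1.19 to 0.01; limma adjusted p = 1.0) on day 15 and -0.57 (-1.17 to 0.03; adjusted p = 0.455) on day 29. The mean of both days, a contrast added after these values were seen, was -0.58 (-1.01 to -0.16; limma adjusted p = 0.696), with 0 genes called (0%) and 1091 at an unadjusted p below 0.05. The same contrast was -0.69 (-1.49 to 0.10; adjusted p = 0.859) for Cyp7a1 and -0.10 to 0.01 for the other 6 genes.

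In the order of group means, no step between neighbouring groups was larger than the larger of their SDs, for any of the 8 genes. Steps between sorted means are small by construction and the SD is that of single mice. The steps therefore describe the order and do not test whether a group stands apart. Cyp7a1 ran from 10.23 in the Elmiron study's vehicle livers of day 29 to 11.59 in the troglitazone study's vehicle livers of day 15, and Nr0b2 from 10.59 with Elmiron on day 15 to 11.69 in those same vehicle livers. The lowest and highest mean of Cyp7a1 were thus both vehicle groups. For the other 6 genes the whole range of the 8 means was 0.12 to 0.30.

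The spread between mice divided the genes in 2 sets. The pooled SD within groups was 0.95 for Cyp7a1, which ranked 15th of 18193 genes, and 0.51 for Nr0b2, which ranked 143rd; the median of all genes was 0.19. The other 6 genes had SDs from 0.11 (Cyp27a1) to 0.17 (Abcb4), at the 5.21st to 33.4th percentile of all genes. Over the 40 livers Cyp7a1 spanned 20.6-fold and Nr0b2 5.27-fold, while the others spanned 1.34-fold to 1.75-fold. Cyp7a1 spread more in the Elmiron study (SD of 1.15) than in the troglitazone study (0.70), a difference that was not tested, and Nr0b2 about alike in both (0.49 and 0.52). Both genes are known to be expressed with a daily rhythm and to respond to feeding, and the sources used here give no time of day or feeding state.

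**Figure D3:**
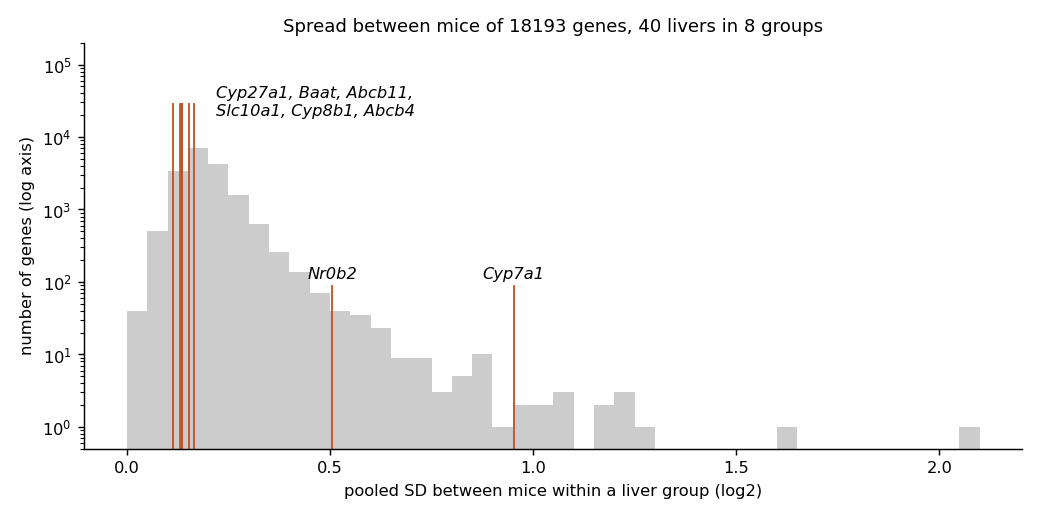
Number of genes (log axis) by their pooled SD between mice within liver groups (log2), for 18193 genes over 40 livers, with the 8 bile acid genes as lines. Cyp7a1 (0.95) and Nr0b2 (0.51) lie in the far right tail and the other 6 at or below the median of 0.19.

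Variation between mice was compared between the genes. Values were taken as deviations from the group mean over the 40 livers, and the 28 pairs were tested by 100000 permutations of mice within groups (two-sided, Benjamini-Hochberg over the 28). By Pearson's r, 12 pairs passed (42.9% of the 28), 11 of them positive, and by Spearman's rho 9 passed, all among the 12. The smallest r that passed was 0.396 in size, and 16.8% of all pairs of the 18193 genes had an r of at least that size. Points of 1 liver share an array and its normalization, and many genes vary together: Slc10a1 ranked 42nd of all genes in likeness to Cyp27a1, and Cyp27a1 206th in likeness to Slc10a1. Abcb4 ranked 837th for Cyp27a1 and 1702nd for Slc10a1, and Abcb11 1585th and 2374th, so these relations are not particular to the bile acid genes.

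The closest pair was Cyp27a1 and Slc10a1, with r of 0.763 and Spearman's rho of 0.808 (permutation p = 1.00e-05 for both, the smallest these permutations can give; adjusted p = 1.40e-04 for r and 2.80e-04 for rho). Without the 2 livers farthest from the median r was 0.733, and within the troglitazone and Elmiron studies it was 0.766 and 0.787. Abcb11 and Abcb4, the 2 canalicular carriers, gave r of 0.651 and rho of 0.618 (permutation p = 1.00e-05 and 6.00e-05; adjusted 1.40e-04 and 5.60e-04), 0.566 without the farthest 2 and 0.762 and 0.649 within the studies. Abcb4 also followed Cyp27a1 (r of 0.560, rho of 0.580; permutation p = 6.90e-04 and 4.20e-04; adjusted 0.00483 and 0.00294) and Slc10a1 (r of 0.555, rho of 0.648; permutation p = 1.50e-04 and 5.00e-05; adjusted 0.00140 and 5.60e-04). These held without the farthest 2 livers (0.492 and 0.566) and within the troglitazone study (0.471 and 0.603) and the Elmiron study (0.636 and 0.560).

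Cyp8b1 and Abcb11 gave r of 0.540 and rho of 0.386 (permutation p = 0.00310 and 0.0292; adjusted 0.0145 and 0.0742), so only r passed. It was 0.472 without the farthest 2 livers, 0.188 in the troglitazone study and 0.696 in the Elmiron study, and 0.377 without the 7 livers high in acute phase genes. Baat was the exception in sign: with Abcb4 it gave r of -0.479 and rho of -0.487 (permutation p = 0.00250 and 0.00362; adjusted 0.0140 and 0.0203), -0.455 without the farthest 2, and -0.611 and -0.349 within the studies. Cyp7a1 and its repressor's gene Nr0b2 showed no clear relation, with r of -0.119 and rho of -0.090 (permutation p = 0.498 and 0.616, adjusted 0.558 and 0.663). Their r was -0.084 without the farthest 2, 0.116 and -0.274 within the studies, and -0.294 without the 7 livers high in acute phase genes. Cyp8b1, the other gene that Nr0b2 is known to lower, varied in the same direction as Nr0b2, with r of 0.406 and rho of 0.447 (permutation p = 0.00867 and 0.00765; adjusted 0.0278 and 0.0268). It was 0.389 without the farthest 2 livers, 0.347 and 0.461 within the studies, and 0.255 without the 7 livers high in acute phase genes. The remaining 5 pairs that passed by r had r from 0.396 to 0.484.

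**Figure D4:**
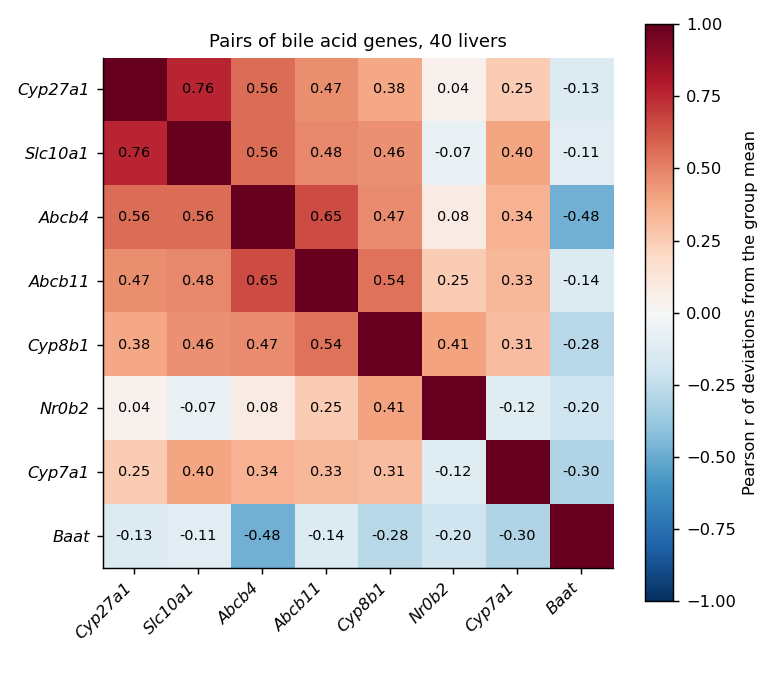
Pearson r of each pair of genes over 40 livers after group means were removed, from blue (-1) to red (1). Cyp27a1, Slc10a1, Abcb4, Abcb11 and Cyp8b1 form a block of positive values, with 0.76 for Cyp27a1 and Slc10a1, and Baat is negative with all of the others.

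The acute phase genes moved with part of this variation. Against their mean level, 8 relations were computed by the same permutations, and 2 passed by r and by rho. Of the other genes, 2.06% had an r with that mean of at least 0.519 in size, the smaller of the 2. Cyp8b1 gave r of -0.556 and rho of -0.483 (permutation p = 4.90e-04 and 0.00422; adjusted 0.00392 and 0.0169), and -0.528 without the farthest 2 livers. Within the troglitazone and Elmiron studies its r was -0.455 and -0.629, and among vehicle and treated livers -0.191 and -0.761. Without the 7 high livers it was -0.132. Those livers were picked by the acute phase mean itself, so leaving them out narrows its range and can shrink r by that alone. This setting therefore cannot tell whether the relation rests on them. Cyp7a1 gave r of -0.519 and rho of -0.453 (permutation p = 0.00230 and 0.00349; adjusted 0.00920 and 0.0169), -0.328 without the farthest 2, -0.444 and -0.572 within the studies, and -0.302 without the 7. The setting without the 7 livers was chosen after the data were seen, and the part of these genes in the comparisons of treated with vehicle mice was not tested beyond the values without the 7 livers.

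Cyp7a1 and Nr0b2 were also set against 13 genes of the circadian clock and its output, 26 relations in all, and those named here were chosen after their values were seen. By r, 1 relation of Cyp7a1 and 2 of Nr0b2 passed, the smallest with r of 0.451. Of all pairs of the 18193 genes, 16.8% had an r of at least 0.396 in size, and the share at 0.451 was not computed. Nr0b2 followed Arntl (Bmal1), with r of 0.566 and rho of 0.609 (permutation p = 6.60e-04 and 2.90e-04; adjusted 0.0172 and 0.00754), 0.639 without the farthest 2 livers, but 0.274 in the troglitazone study against 0.787 in the Elmiron study. It followed Npas2 with r of 0.497 and rho of 0.535 (permutation p = 0.00509 and 0.00211; adjusted 0.0441 and 0.0274), 0.496 without the farthest 2, and 0.324 and 0.652 within the studies. Cyp7a1 followed Nr1d1 (Rev-erb alpha) with r of 0.451 and rho of 0.445 (permutation p = 0.00381 and 0.00888, adjusted 0.0441 and 0.0770), and passed by r only. Its r with Nr1d1 was 0.460 without the farthest 2, and 0.559 and 0.458 within the studies. Without the 7 livers high in acute phase genes, r was 0.439 for Nr0b2 with Arntl and 0.332 with Npas2. In that setting it was 0.445 for Cyp7a1 with Nr1d1.

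As a description, the 3 genes whose deviations were most like each member's over the 40 livers were found by Pearson r. They were Mcm10, Sinhcaf and Tbc1d30 for Cyp7a1 (r from 0.687 to 0.711), Dynll2, Selenbp1 and Slco2a1 for Cyp8b1 (0.747 to 0.779), and Dpys, Slc38a4 and Slc27a5 for Cyp27a1 (0.857 to 0.874). For the carriers they were Abat, Ece1 and Sdc2 for Slc10a1 (0.871 to 0.877), Rapgef6, Ube4b and Mlxipl for Abcb11 (0.838 to 0.862), and Ptprf, Pex6 and F5 for Abcb4 (0.839 to 0.847). For Nr0b2 they were Ppp1r3c, Epha2 and Dapk1 (0.702 to 0.746), and for Baat Trappc13, Kpna4 and Krit1 (0.799 to 0.824). No member was among the 3 genes most like another member.

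The rest of the pathway, 56 other measured genes of bile acid synthesis, transport and control, likewise held none that was called with either compound on either day. With troglitazone on day 15, 23 were above 0 and 33 below with a median change of -0.02, and on day 29, 16 were above and 40 below with a median of -0.07. With Elmiron, 32 were above and 24 below on day 15 (median 0.02), and 33 above and 23 below on day 29 (median 0.07). The medians of the members in the same order were -0.00, -0.12, -0.08 and 0.04, and those of all genes -0.01, 0.00, -0.01 and 0.01. With troglitazone on day 29, 6 of 8 members were below 0, all 5 other uptake carriers were below 0 (median -0.19), and 14 of 19 genes of bile acid sensing and control were below 0 (median -0.12).

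In that same comparison 9 of 9 hepatocyte markers were below 0, with a median of -0.05, and 10 of 10 Kupffer cell and macrophage markers were above 0, with a median of 0.50. The mean level of the hepatocyte markers was 14.74 to 14.79 in the vehicle livers and 14.61 to 14.75 in the treated ones, and that of the macrophage markers 8.52 to 9.27 and 8.99 to 10.22. No marker was called, and the part of these markers in the members' values was not tested. With Elmiron on day 15 the macrophage markers were also above 0 in 10 of 10 (median 0.54), from 8.91 to 9.50 in vehicle and 9.47 to 10.19 in treated livers, while the hepatocyte markers had a median of 0.00. Mean levels of liver zone genes are given for a single comparison per list, chosen because treated and vehicle livers did not overlap. Their values in the other comparisons are not given here, so no contrast between zones or compounds can be read from them. Of single genes, 1.07% did not overlap with troglitazone on day 29 and 1.06% with Elmiron on day 15. No such share was computed for the mean of a list. The mean level of 7 periportal genes was 11.93 to 12.09 in vehicle and 11.72 to 11.90 in treated livers with troglitazone on day 29, without overlap, and 6 of 7 were below 0. That of 10 pericentral genes was 11.26 to 11.41 in vehicle and 10.86 to 11.21 in treated livers with Elmiron on day 15, also without overlap, and 7 of 10 were below 0. None of these genes was called, and their part in the members' values was not tested.

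Among the regulators and carriers named whatever their result, Nr1h4, the bile acid receptor FXR itself, differed from vehicle by 0.00, -0.20, -0.07 and -0.03 in the 4 comparisons, troglitazone on days 15 and 29 and Elmiron on days 15 and 29 (lowest adjusted p = 0.582). Nr5a2 (LRH-1) differed by -0.01, -0.18, 0.15 and 0.08 (lowest adjusted p = 0.643). Cyp7b1, the next enzyme of the alternative pathway, was below 0 in all 4 (-0.20, -0.23, -0.09 and -0.29; adjusted p from 0.487 to 0.998). The uptake carriers Slco1b2 and Slco1a1 differed most by -0.17 (Elmiron on day 29) and -0.21 (troglitazone on day 15). Of the exporters, Abcc2, at the canalicular membrane, differed by -0.11, -0.17, 0.03 and 0.29 (lowest adjusted p = 0.561). Abcc3, which returns bile acids to blood, differed by 0.39, -0.01, -0.26 and 0.05 (lowest adjusted p = 0.937), and Abcc4, another basolateral exporter, by 0.14, 0.64, 0.35 and 0.02. For Abcc4 with troglitazone on day 29 the means were 6.92 ± 0.33 and 6.28 ± 0.29 (SD, n = 5), and the difference (0.26 to 1.01) did not pass (limma adjusted p = 0.288).

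The smallest p-values of the pathway, named after their values were seen, did not pass either. Akr1d1, the steroid reductase of bile acid synthesis, was at 0.40 relative to vehicle with Elmiron on day 15 with groups that did not overlap (adjusted p = 0.549), a pattern of 0.748% of all genes in that direction. Cyp39a1, an oxysterol hydroxylase, was at -0.45 and -0.49 relative to vehicle with troglitazone on days 15 and 29 (limma adjusted p = 0.662 and 0.194). Its groups of day 29 did not overlap, a pattern of 0.308% of all genes in that direction. Slco1a4, an uptake carrier, was at 0.60 with Elmiron on day 29 (adjusted p = 0.406), and Slc22a7, a carrier of organic anions, at -0.79 with troglitazone on day 29 (adjusted p = 0.204).

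Fat tissue served as the reference. All 8 members were higher in vehicle livers than in vehicle brown adipose tissue on both days, in a comparison where 63.1% of all genes were called on day 15 (35.1% higher in liver) and 65.8% on day 29 (37.5% higher). The differences on day 15 were 7.85 for Slc10a1, 7.34 for Cyp8b1, 6.97 for Baat, 6.93 for Abcb11, 4.81 for Cyp7a1 and 4.19 for Nr0b2, with limma adjusted p of 4.50e-19, 8.11e-22, 2.82e-27, 3.60e-22, 2.00e-15 and 1.88e-15. The brown adipose means of these genes were low on the deposited scale (5.79, 6.22, 4.92, 6.11, 6.78 and 7.50 in the same order) and could not be placed against background, so these differences may understate the true ones. Abcb4 and Cyp27a1 differed least, by 3.56 (11.8-fold; adjusted p = 1.18e-16) and 2.67 (6.38-fold; adjusted p = 1.33e-21), and on day 29 by 3.69 and 2.81.

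In some fat libraries hepatocyte transcripts were high, and several members were high in the same libraries; the part of liver RNA in those values was not tested. In brown adipose tissue, vehicle mouse 82 of day 29 had albumin (Alb) at 14.61 against 6.32 to 10.56 in the other 19 arrays, and its 9 hepatocyte markers had a mean of 12.50. In it Slc10a1 was at 9.45 (others 5.12 to 6.67), Cyp8b1 at 9.13 (5.39 to 6.75), Abcb11 at 8.57 (5.68 to 6.74) and Baat at 6.74 (4.53 to 5.39). Cyp27a1, at 10.75 (9.46 to 10.66), and Abcb4, at 7.95 (7.66 to 9.66), did not stand out in the same way. The 6 brown adipocyte markers had a mean of 7.55 there and of 8.23 in troglitazone mouse 95 of day 29, against 12.49 or more in the other 18 arrays, so both libraries go against their tissue label. The same mean reached 11.92 in a white adipose library, against a median of 7.57 over that tissue, so not every white adipose label matches its markers either. In white adipose tissue, vehicle mouse 86 and fenretinide mouse 95 of day 29 had Alb at 13.93 and 13.99 and Slc10a1 at 8.26 and 9.19, and fenretinide mouse 93 had Alb at 12.22 and Slc10a1 at 7.36, against 5.22 to 6.20 for Slc10a1 in the other 11.

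**Figure D5:**
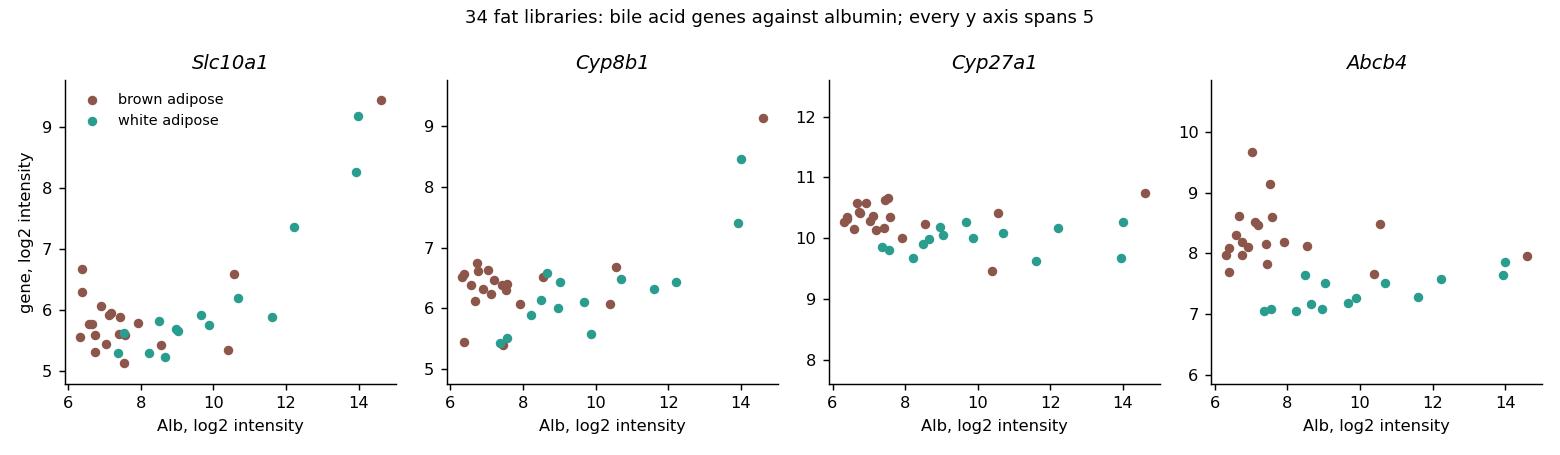
Slc10a1, Cyp8b1, Cyp27a1 and Abcb4 against albumin (Alb) in 34 fat libraries, both in log2 intensity, with every y axis spanning the same range. Slc10a1 and Cyp8b1 are raised in the libraries with Alb above 13.9 (Slc10a1 at 8.26 to 9.45), while Cyp27a1 (9.68 to 10.75) and Abcb4 (7.65 to 7.95) lie within or close to the range of the other fat libraries.

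No member was called between treated and vehicle fat. In brown adipose tissue with troglitazone 0 of 8 were called on days 15 and 29, against 0.0605% and 0.0550% of all genes (682 and 1093 at an unadjusted p below 0.05), and in white adipose tissue with fenretinide 0 of 8, against 3.95% and 1.34% (3583 and 2701 unadjusted). On day 29 in brown adipose tissue 7 of 8 members were below 0, with -0.74 for Slc10a1 and -0.67 for Cyp8b1. Without vehicle mouse 82 these were 0.02 and -0.13, and Cyp27a1, the 1 member with an unadjusted p below 0.05 (-0.37; limma adjusted p = 0.665), was -0.30. Without troglitazone mouse 95, whose Cyp27a1 was the lowest at 9.46, it was -0.22. In white adipose tissue on day 15, with 3 mice a group, all 8 members were below 0 (median -0.26), and 2 had groups that did not overlap, Cyp8b1 at -0.89 (-2.02 to 0.24; limma adjusted p = 0.373) and Cyp7a1 at -0.50 (-1.06 to 0.06; adjusted p = 0.316). In that comparison the groups of 27.9% of all genes did not overlap, 15.8% in this direction. Slc10a1 differed from vehicle by -0.19 on day 15 and 0.44 on day 29, and the latter was 0.28 without mice 86 and 95 and -0.35 without mouse 93 as well. The difference of Slc10a1 between liver and brown adipose tissue on day 29 was 7.26 with all libraries and 8.02 without mouse 82, and all 8 members remained called.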

How the data were processed

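RNA of liver, brown and white adipose tissue of male mice was measured on 74 Affymetrix arrays. The deposited values are linear intensity per probe set after RMA, per the labels; neither an RMA version nor a chip definition was given there. Intensities ran from 7.44 to 39426 and were used as log2 with no offset. Each gene was represented by its single-symbol probe set with the highest mean over all arrays.

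Differences came from the lmFit and eBayes functions of limma (version 3.58.1, under R 4.3.3; tested on simulated data), with 1 mean per group over the 20 arrays of a tissue and study (14 in white adipose tissue) or the 40 arrays that a contrast between studies or tissues spans. Adjusted p below 0.05 over all 18193 genes was called, with no fold threshold. Replicates are separate mice, 1 array each; within-group correlations were 0.9801 to 0.9965 in liver with 0 identical pairs, and the number of arrays limits the precision. Liver and brown adipose arrays shared 15 mice; their deviations correlated by -0.135 to 0.151, and the main fit has no block.

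Members and lists were chosen with earlier results of these data known. Named were all members, pathway genes called in liver and 8 fixed pathway genes; others are marked as chosen after their values were seen. Alternatives were a filter on dim genes, quantile normalization, median centring, other probe set rules, an offset of 16, trended and robust eBayes, array weights, 2-group fits, a 1.5-fold threshold, the other study's vehicle livers, a block for the mouse, and fits without each array in turn. Settings without libraries high in hepatocyte or acute phase genes were chosen after seeing the data. Correlations and figures were made in matplotlib 3.10.9, pandas 2.3.3 and numpy 2.4.6 (Python 3.11.15).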

Additional observations from a re-analysis of the deposited data

Results flagged for a closer look

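Each of the 8 genes was looked at in each of the 14 groups of 4 or 5 arrays, 112 combinations in all, and in 12 the value of 1 mouse stood far from the rest of its group, 6 in brown adipose tissue, 2 in white adipose tissue and 4 in liver; chance marks about 1 in 20. Of these, 6 belong to 2 fat libraries with high albumin. In brown adipose vehicle mouse 82 of day 29, Cyp8b1 was at 9.13 (others 6.32 to 6.63), Slc10a1 at 9.45 (5.44 to 6.07), Abcb11 at 8.57 (5.74 to 6.30) and Baat at 6.74 (5.10 to 5.19). In white adipose vehicle mouse 86 of day 29, Slc10a1 was at 8.26 (others 5.68 to 5.91) and Baat at 5.76 (4.88 to 4.99).

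Of the other brown adipose values, Cyp27a1 was at 9.46 in troglitazone mouse 95 of day 29 (others 10.15 to 10.36), the library with low brown adipocyte markers, and Abcb4 at 7.69 in troglitazone mouse 54 of day 15 (others 8.09 to 8.18).

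In liver, Abcb11 was at 12.59 in Elmiron mouse 91 of day 29 (others 13.07 to 13.23), the liver with the highest acute phase level, and Cyp27a1 at 13.37 in Elmiron mouse 92 of the same day (others 13.06 to 13.13). Abcb4 was at 11.83 in vehicle mouse 83 of day 29 (others 12.05 to 12.14) and Baat at 11.51 in vehicle mouse 42 of day 15 (others 11.95 to 12.08), both in the Elmiron study. The 4 liver values came from 64 combinations of a gene and a liver group.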

How the results depend on the processing

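The 18 counts of called members kept their value under all 323 alternatives run: 0 of 8 in the 4 liver comparisons, the contrasts between days, compounds, studies and vehicle groups, and the fat comparisons, and 8 of 8 between liver and brown adipose tissue. The 1.5-fold threshold can only remove calls, so it could not change a count of 0. Leaving out each array in turn gave 0 to 0 members in every comparison where it was run. With the mouse as a random block, the replicate block that the 15 mice with both tissues allow, 8 of 8 members remained called between liver and brown adipose tissue on both days. The block was run for these comparisons only. No member's call changed in 2558 alternatives of single genes; 190 of them turned the sign of a change that was not called. The lowest adjusted p any member reached in the 4 liver comparisons was 0.081, for Abcb4 with troglitazone on day 29, where its change ran from -0.32 to -0.13; that of Cyp8b1 ran from -0.24 to -0.02 (adjusted p from 0.203 to 0.988), the latter with the other study's vehicle livers. Settings that leave out libraries high in hepatocyte or acute phase genes were added after the data were seen and also gave 0 of 8 in liver and fat. Without detection calls, low values cannot be placed against background, and 5 mice a group limit what Cyp7a1 and Nr0b2 can show.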
